A study of Homo sapiens with 2 samples.

Results

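The nuclear receptor family was examined on 2 arrays of HCT15 cells, 1 per group, through 39 listed receptor genes. The list was matched to the array's probe sets by exact gene symbol, and each gene was read from the probe set that was brightest on average. Of the 39 genes, 33 had such a probe set among the 19775 genes of the series, and NR1D1, NR1H2, NR1H4, NR1I2, HNF4A and NR2F2 were not analysed here.

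HCT15 is an established human colorectal adenocarcinoma cell line. The first group, with the genotype ARID3B knockout, received Cas9 directed at ARID3B, which encodes a DNA-binding protein with an AT-rich interaction domain, and the second group received the control. The culture medium of both was RPMI with fetal bovine serum. The sources used here do not say whether the edited cells were a clone or a pool. The comparison asks how the transcripts of the edited cells differ from those of the control cells.

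Nuclear receptors are transcription factors that mostly bind small lipophilic ligands, among them steroids, retinoids, thyroid hormone, vitamin D, fatty acids, oxysterols and bile acids. They recruit coactivators or corepressors to DNA elements built from short repeats, and many of them bind as heterodimers with a retinoid X receptor. In the intestine they are known for control of lipid and bile acid handling, ion absorption, differentiation and the daily rhythm of transcription.

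The regions upstream of the start sites of 3 receptor genes are shown because their members stood apart in the comparison or, for NR4A1, because it is a close relative of NR4A3. They are the 250 bases before an annotated start, on the gene's strand, from RefSeq on GRCh38.p14. For NR4A3 the window is chr9:99821635-99821884 on the + strand, and for NR4A1 chr12:52037465-52037714 on the + strand, the more downstream of its 2 listed starts. For NR1D2 it is chr3:23945871-23946120 on the + strand, also the more downstream of 2. Capitals in the NR4A genes mark TGACG on either strand, the core of the cAMP response element, and capitals in NR1D2 mark the E-box CACGTG, the letters that the clock factors CLOCK and BMAL1 bind.
NR4A3: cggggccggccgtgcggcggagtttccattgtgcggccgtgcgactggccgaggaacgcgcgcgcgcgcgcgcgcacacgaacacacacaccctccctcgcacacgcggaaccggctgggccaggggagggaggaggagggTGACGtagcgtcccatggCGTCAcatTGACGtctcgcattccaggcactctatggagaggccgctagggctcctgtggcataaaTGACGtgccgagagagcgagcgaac
NR4A1: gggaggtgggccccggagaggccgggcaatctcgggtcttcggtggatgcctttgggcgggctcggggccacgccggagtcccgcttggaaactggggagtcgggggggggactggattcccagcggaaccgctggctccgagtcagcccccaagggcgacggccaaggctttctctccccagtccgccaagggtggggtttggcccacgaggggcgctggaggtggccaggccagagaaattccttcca
NR1D2: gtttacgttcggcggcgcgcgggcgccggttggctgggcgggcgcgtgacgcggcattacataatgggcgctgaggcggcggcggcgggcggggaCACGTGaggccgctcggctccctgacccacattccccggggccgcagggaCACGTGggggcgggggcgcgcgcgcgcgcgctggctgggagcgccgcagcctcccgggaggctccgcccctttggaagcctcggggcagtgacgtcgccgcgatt

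The NR4A3 window held 4 matches to TGACG, and both NR4A1 windows held 0. Of 35114 windows of this length, 21.2% held the letters at least once and 0.236% held them 4 times or more. The 34 receptor genes with a listed window had 85 windows, of which 14, in 12 genes, held TGACG. NR3C2 and NR1D2 were among these genes, and the matches in the NR1D2 window shown are left in small letters. The NR1D2 window shown held 2 E-boxes, and its other window held 0, where 6.35% of all windows held at least 1 and 0.535% at least 2. Of the 85 receptor windows 5 held an E-box. TGACG also occurs inside the full element TGACGTCA, which 1.65% of windows held and which was found in NR6A1 alone among 34 receptor genes with a listed window. AGGTCA, the receptors' own recognition core, was in 12 of the 85 windows of these genes, close to the 12.1% of all windows that held it. These matches describe letters and not occupied sites.

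The values are log2 expression after RMA, and each difference given is the control value subtracted from that of the array labelled knockout. Genes whose brighter array reached 4.59 were compared, and this limit, the median over probe sets other than controls, is called the floor here. This left 12841 genes and 28 of the 33 receptors, of which 23 were at or above the floor on both arrays. ARID3B itself was 0.97 higher under the knockout label in its only probe set, at 6.09 against 5.12, so that its transcript did not bear out the label. Whether the gene was edited was not tested here, and every direction below rests on the labels. The poly-A spike-ins, with 24 probe sets, differed by a mean of -1.19. Directions are therefore relative to the other genes, and with the arrays scaled on the spike-ins all differences move up by that amount, the receptors NR4A3 (-1.53) and HNF4G (-0.31) staying below 0. As to the cell line, 9 of 12 colorectal epithelial markers reached the floor, with EPCAM at 12.2 on both arrays, while KRT20, CDH17 and LGALS4 did not. PTPRC, CDH5 and PDGFRB, which define leukocytes, endothelium and fibroblasts, were under the floor on both arrays, although 3 of 7 leukocyte, 2 of 5 endothelial and 3 of 8 fibroblast markers reached it, among them COL1A1 at 7.12 and 6.87 with probe sets of both signs. Each group had 1 array, so nothing could be tested or checked in replicates, and precision is limited by this number of arrays.

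Of the 28 receptors compared, 3 were at least 2-fold higher on the knockout-labelled array and 2 at least 2-fold lower. Among all genes compared 1.05% were called higher and 3.79% lower, 4.84% in all. The mineralocorticoid receptor NR3C2, the clock repressor NR1D2 and the retinoid X receptor RXRA were higher, and the orphan receptor NR4A3 and the hepatocyte nuclear factor HNF4G were lower. NR3C2, NR4A3 and HNF4G passed the floor through the array on which they were high, so that they had to differ. Among the 23 receptors at or above the floor on both arrays 2 were higher and 0 lower, against 1.02% and 2.83% of 12009 genes. The receptors nearest the 2-fold limit were RXRA, just past it at 1.03, and VDR, short of it at -0.84.

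Most other receptors differed by little. The median difference of the 28 was 0.23, against 0.04 over all genes compared, and 21 of 28 (75.0%) lay above 0, against 52.9% of all genes. These shares are relative to the other genes, and with the spike-in scaling 26 of the 28 lay above 0. In 15 of the 28 the difference did not exceed the spread among genes of similar expression, a scaled median absolute deviation of 0.255 to 0.437 by level. Outside it were 8 receptors upward and 5 downward, or 46.4% of receptors against 34.8% of all genes.

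**Figure D1:**
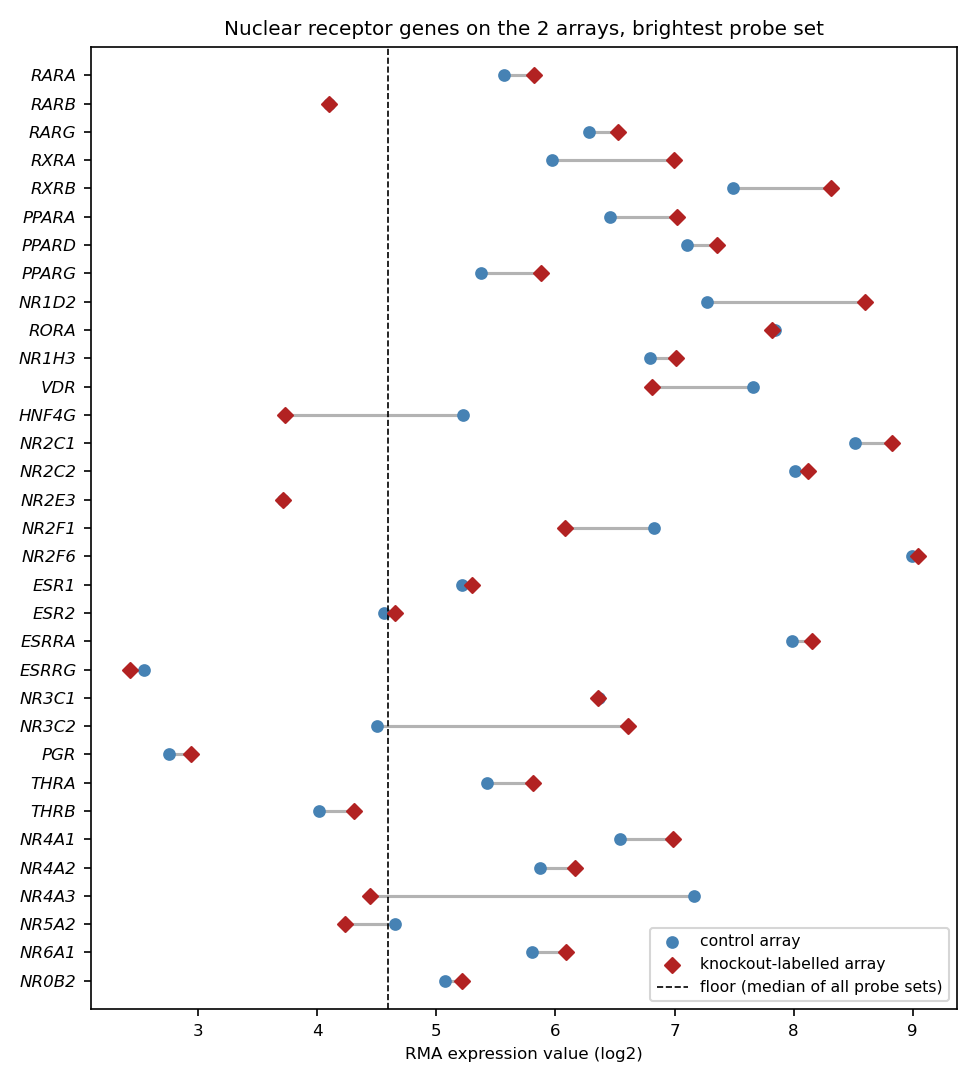
RMA expression values (log2, horizontal axis) of the 33 receptor genes with a probe set, 1 row per gene, on the control array (circles) and the knockout-labelled array (diamonds), with the floor of 4.59 as a dashed line. NR3C2 and, narrowly, ESR2 cross the floor upward, and NR4A3, HNF4G and NR5A2 cross it downward; values are to be compared within a gene, since probe sets differ in brightness.

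**Figure D2:**
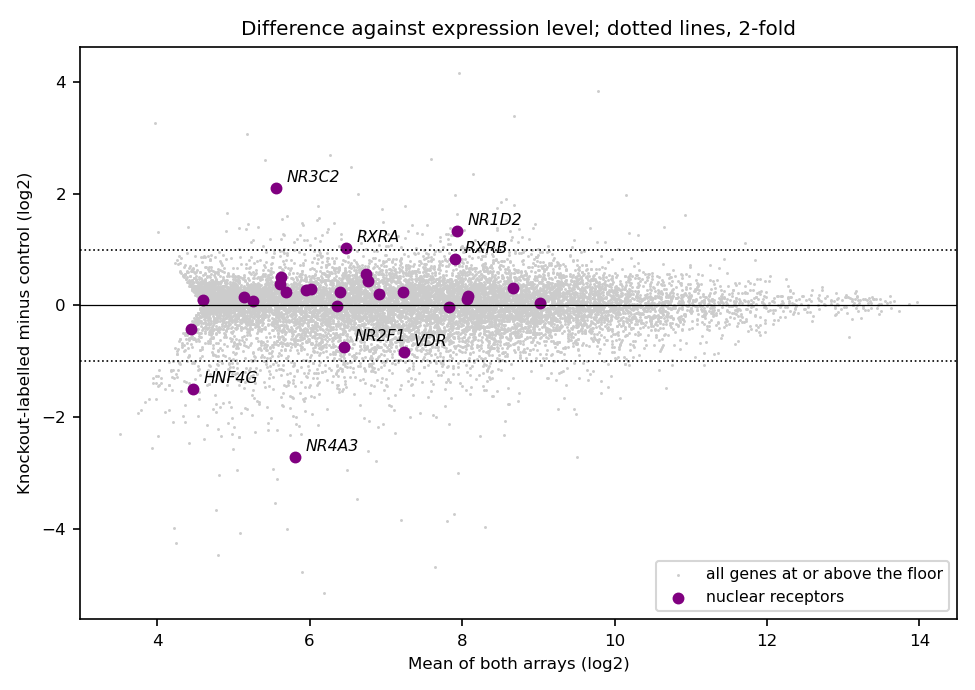
Knockout-labelled minus control (log2, vertical axis) against the mean of both arrays (log2, horizontal axis) for 12841 genes (grey) and the 28 receptors at or above the floor (purple), with 2-fold as dotted lines. NR3C2, NR1D2 and RXRA lie above the upper line and HNF4G and NR4A3 below the lower, relative to the other genes.

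The corticosteroid receptors differed unequally. NR3C2, which binds aldosterone and cortisol and drives sodium absorption in the distal colon, had a value of 6.61 under the knockout label and 4.50 in the control. The control value was under the floor, and set against the floor NR3C2 was at least 4.05-fold higher. With 64 linear units added to both arrays, which damps dim values, its difference was 0.90. It had 1 probe set, so no second reading of the gene was to be had. The glucocorticoid receptor NR3C1, its closest relative here, stood at 6.35 and 6.36, and its 4 probe sets at or above the floor differed by -0.24 to 0.03. The progesterone receptor PGR was under the floor on both arrays, at 2.94 and 2.76. In RNA of a whole culture, fewer cells with a transcript and less transcript per cell cannot be told apart.

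Among target genes described for these receptors, 12 of the 16 listed reached the floor, with a median of 0.13. Of these 12, 3 were called higher and 1 lower, against 1.05% and 3.79% of all genes. The glucocorticoid-induced leucine zipper TSC22D3 stood at 8.46 and 7.17, a difference of 1.29, but its 3 probe sets averaged 0.81, short of 2-fold. KLF9, a transcription factor induced by corticosteroids and by thyroid hormone, had a brightest probe set that differed by 1.44, while its 5 probe sets averaged 0.47. ERRFI1, a feedback inhibitor of the EGF receptor, differed by 1.41. SGK1, the kinase through which aldosterone acts on the sodium channel, was lower, at 5.32 against 6.59. FKBP5, a cochaperone of steroid receptors and a common glucocorticoid target, was also below 0, at -0.56. The channel subunit SCNN1A stood at 9.67 and 9.35, and SCNN1B and SCNN1G were under the floor on both arrays. The targets called thus lay on both sides of 0.

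The NR4A receptors, orphan receptors of the immediate early class that bind DNA without a known hormone, also differed from each other. NR4A3 stood at 4.44 under the knockout label and 7.16 in the control, and set against the floor it was at least 5.96-fold lower. With 64 linear units added to both arrays its difference was -1.27. Its second probe set differed by -2.58, at 3.97 and 6.55, and the third, under the floor on both arrays, by -0.72. NR4A1 was at 6.99 and 6.54 and NR4A2 at 6.16 and 5.87, differences of 0.44 and 0.29. All 3 probe sets of NR4A1 (0.16 to 0.56) and all 3 of NR4A2 (0.12 to 0.45) lay above 0, while those of NR4A3 all lay below it. NR4A3 stayed below 0 and NR4A1 and NR4A2 above it in each alternative that gave them a value, the spike-in scaling included, where NR4A3 was at -1.53 and NR4A1 at 1.63.

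NR1D2 led the clock receptors. This gene encodes REV-ERB beta, a haem-binding repressor of BMAL1, and stood at 8.60 under the knockout label and 7.27 in the control, 2.51-fold higher. Its second probe set was at 7.86 and 7.25, a difference of 0.62 and below the 2-fold limit, and their mean of 0.97 also falls short of it. RORA, an activator that competes with REV-ERB proteins for the same DNA elements, was at 7.82 and 7.85 in its brightest probe set. Its other 4 probe sets at or above the floor lay above 0, up to 0.69, so that its mean over all 8 was 0.23.

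Other genes of the circadian clock also lay mostly above 0. Of 15 listed, 12 reached the floor, 10 of these were above 0, against 52.9% of all genes, and the median was 0.60. In their brightest probe sets 3 were called higher and 0 lower, against 1.05% and 3.79% of all genes, but none of these 3 calls held on the mean of the gene's probe sets. The output factor DBP stood at 8.90 and 6.92, a difference of 1.97, although its probe sets differed in direction and averaged 0.89. The E-box repressors BHLHE41 and BHLHE40 differed by 1.61 and 1.06, with probe set means of 0.49 and 0.77. BMAL1 differed by 0.77. CLOCK differed by 0.07, and its paralogue NPAS2 (-0.49) and the repressor CRY1 (-0.19) were below 0. Averaged over probe sets the median of the clock genes was lower but still above 0, and it ranged from 0.27 to 0.60 over the alternatives other than the spike-in scaling.

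The retinoid receptors were above 0 in their brightest probe sets, but not in all of them. RXRB stood at 8.31 and 7.49, a difference of 0.82. Its second probe set differed by 0.94 and the third by -0.17, and the 3 averaged 0.53. RXRA was 2.04-fold higher in its brightest probe set, at 7.00 and 5.97, but lower in the other, at 5.96 and 6.94. These differences of 1.03 and -0.98 average to 0.03, and the call for RXRA holds for 1 probe set alone. The retinoic acid receptors RARA (5.82 and 5.57) and RARG (6.53 and 6.28) each differed by 0.25, and RARB was at 4.10 on both arrays, under the floor.

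Retinoic acid target genes lay on the other side. Of 13 listed, 7 were measured and 6 of these were below 0, where 52.9% of all genes were above 0. Their median of -0.33 was between -0.42 and -0.23 in the alternatives other than the spike-in scaling. A higher floor of 6.60 left only 1 of these genes, and DHRS3 passed the main floor by its control value alone. RARRES1, a membrane protein induced by retinoids, was lowest at -1.11, near the floor at 4.75 against 5.86. It was the single call among them, where 3.79% of all genes were called lower. The retinoic acid hydroxylases CYP26B1 and CYP26A1 differed by -0.78 and -0.46. ALDH1A3, which makes retinoic acid, was 2.27-fold lower, at 7.47 against 8.66, and its 2 probe sets averaged -0.53. CRABP2, the protein that carries retinoic acid to its receptors, differed by -0.33.

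The fatty acid receptors of the PPAR class all lay above 0 in their brightest probe sets. PPARA, which drives fatty acid oxidation, was at 7.02 and 6.46, a difference of 0.57, and its other 5 probe sets at or above the floor differed by 0 to 0.54. PPARG, the receptor that drives fat cell differentiation, was at 5.88 and 5.38. PPARD was at 7.35 and 7.11, but a dimmer probe set of it was at 3.91 and 5.30, a difference of -1.40, and all 4 averaged -0.18. Of 10 measured PPAR targets 7 were above 0, against 52.9% of all genes. Their median of 0.28 ranged from 0.11, with the higher floor, to 0.31 over the alternatives other than the spike-in scaling. In each direction 1 was called, where 1.05% of all genes were called higher and 3.79% lower. The pyruvate dehydrogenase kinase PDK4 stood at 6.29 and 5.01 (1.28, but 0.60 as the mean of its 3 probe sets), the lipase inhibitor ANGPTL4 at 5.56 and 4.88 (0.68), and the thioredoxin inhibitor TXNIP at 7.06 and 9.40 (-2.34).

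The sterol and vitamin D sensors went in different directions. The liver X receptor NR1H3, which senses oxysterols, stood at 7.01 and 6.80. Its target ABCG1, a cholesterol exporter, did not reach the floor in the control in its brightest probe set. Set against the floor that probe set was at least 4.36-fold higher, while the 4 probe sets of ABCG1 averaged a difference of 1.26. The other 8 measured LXR targets lay between -0.26 and 0.27. ABCA1, the best known of these targets, was under the floor on both arrays.

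VDR, the vitamin D receptor, was at 6.81 under the knockout label and 7.65 in the control, 1.79-fold lower. All 4 of its probe sets lay below 0, from -0.87 to -0.15, with an average of -0.53. Of its 6 measured targets, the tight junction protein CLDN2 was 2.82-fold lower, at 5.69 against 7.19, and the others were between -0.21 and 0.19. CYP24A1, the enzyme that breaks down vitamin D and its most responsive target, was under the floor on both arrays.

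HNF4G, an intestinal and hepatic factor of the HNF4 class, was at 3.73 and 5.22. Set against the floor it was at least 1.55-fold lower, so that the 2-fold call rests on a value below the floor, and its dimmer probe set, under the floor on both arrays, differed by -0.56. Of 15 listed targets of the HNF4 class 6 reached the floor and 0 were called, against 4.84% of all genes. The homeobox factor CDX2 was at 0.64. The COUP transcription factor NR2F1 was at 6.08 and 6.83 in its only probe set, 1.68-fold lower. Its relative NR2F6 was at 9.04 and 8.99. NR2F2, the other COUP factor, was not analysed here. NR2F2-AS1, a non-coding RNA named for its place beside that gene, stood at 10.04 and 5.88 in its only probe set, 17.9-fold higher. This was the largest upward difference among all genes compared. The corresponding RNA beside NR2F1, NR2F1-AS1, was at 5.59 and 5.74 in its brightest probe set. Its dimmer probe sets, under the floor on both arrays, differed by -0.42 and -0.39.

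The remaining receptors differed by under 1.5-fold. The orphan receptors NR2C1 (8.83 and 8.52) and NR2C2 (8.12 and 8.01) each had a second probe set with a difference below 0. NR6A1, the germ cell nuclear factor, was at 6.09 and 5.81, and all 7 of its probe sets lay above 0, from 0.14 to 0.54. The thyroid hormone receptor THRA was at 5.81 and 5.42, with a dimmer probe set at -0.20, and THRB was under the floor. ESRRA, an orphan receptor that drives mitochondrial genes, was at 8.15 and 7.99. The oestrogen receptors were close to the floor in their brightest probe sets, ESR1 at 5.30 and 5.22 and ESR2 at 4.65 and 4.56. Of the 9 probe sets of ESR1 3 reached the floor, and of the 6 of ESR2 1 did. NR5A2, an activator of intestinal steroid synthesis, was at 4.23 and 4.65, so that it passed the floor by its control value alone. NR0B2, a repressor that lacks the DNA-binding domain, was at 5.22 and 5.07. The receptors under the floor on both arrays were RARB, NR2E3, ESRRG, PGR and THRB, with values of 2.43 to 4.31.

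**Figure D3:**
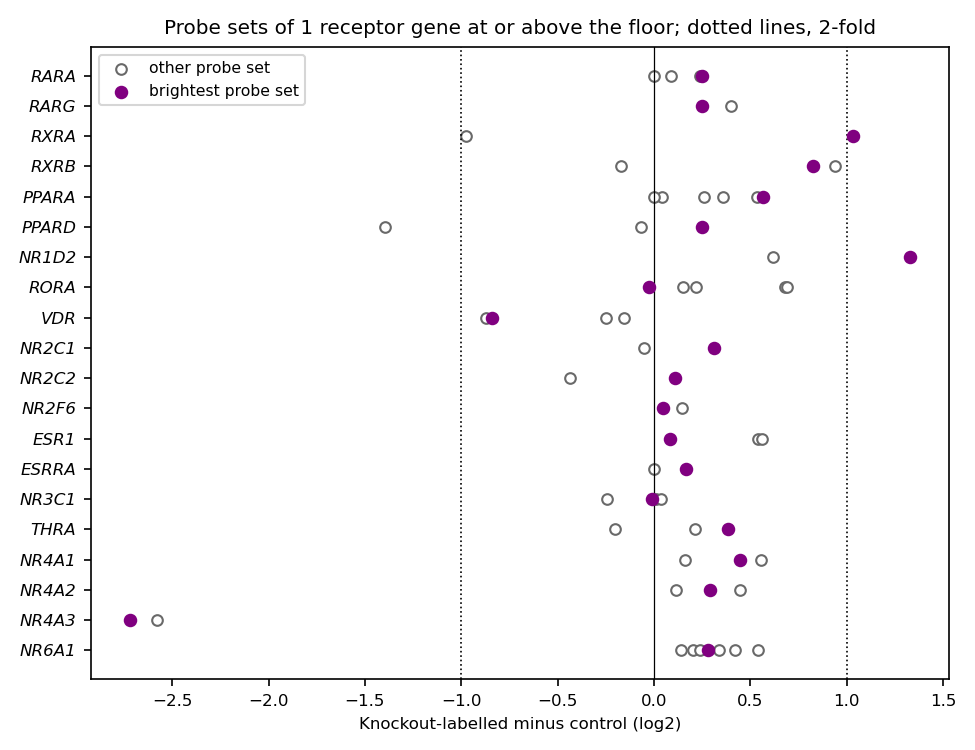
Knockout-labelled minus control (log2, horizontal axis) for each probe set at or above the floor of the 20 receptors with at least 2 of them; filled points are the brightest probe set, open points the others, and dotted lines mark 2-fold. Probe sets of RXRA lie on opposite sides at 1.03 and -0.98, those of VDR and NR4A3 all lie below 0, and those of NR6A1 all lie above it, relative to the other genes.

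Agreement between the probe sets of 1 gene was the nearest measure of technical precision here. Such probe sets share the same 2 arrays, so they cannot show variation between arrays. Of 20 receptors with at least 2 probe sets at or above the floor, 10 had probe sets of 1 sign throughout, as did 61.1% of 6297 such genes. In RARA and PPARA this was missed by a probe set with exactly the same value on both arrays. Of the 116 receptor probe sets 11 (9.48%) had identical values on both arrays, against 6.73% of all, and 9 of these 11 were under the floor.

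Cofactors and chaperones of the receptors differed little. The counts below stand beside 1.05% of all genes called higher, 3.79% called lower and 52.9% above 0. Of 15 measured coactivators 10 were below 0, with 0 called higher and 1 lower, PPARGC1B, a partner of PPARs and oestrogen-related receptors, at -1.05 in its brightest probe set and -0.45 as the mean of 4. The acetyltransferase KAT2B was at -0.93. Among 7 measured corepressors 5 were above 0 and 0 were called, led by NRIP1 (0.85), which represses oestrogen and retinoid receptors. SIN3A followed at 0.67, with probe sets of both signs. Chaperones of steroid receptors had a median of -0.08, with 0 of 8 called. Of the oestrogen targets 4 of 10 reached the floor, all above 0 and none past 0.38. Of the ERR and PGC-1 targets 11 of 12 did, with PDK4 again the single call, in its brightest probe set. Thyroid hormone targets had 3 measured members, of which KLF9 alone was called. Bile acid and xenobiotic targets had 2, of which the drug exporter ABCB1 was lower at -1.86, the receptors NR1H4 and NR1I2 not being analysed here. Enzymes of ligand synthesis and breakdown had a median of -0.22 over 12 members, with ALDH1A3 the single call, and the 2 measured lipid ligand carriers, FABP5 (-0.42) and CRABP2, were below 0.

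**Figure D4:**
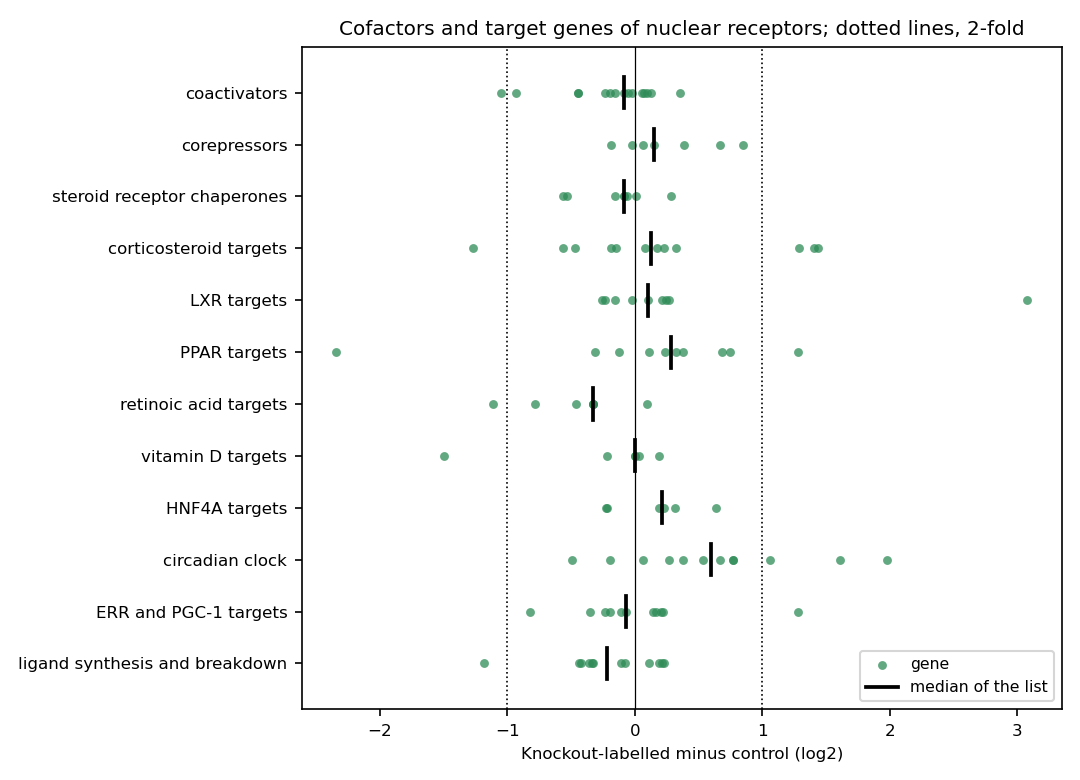
Knockout-labelled minus control (log2, horizontal axis) of genes at or above the floor in 12 lists of cofactors, targets and ligand enzymes with at least 5 such genes; points are genes, bars the list medians and dotted lines 2-fold. The clock list has the highest median at 0.60 and the retinoic acid targets the lowest at -0.33, relative to the other genes.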

How the data were processed

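Total RNA of 2 HCT15 cultures was measured, with 1 array per group. The authors deposited log2 expression values; the submitters' processing notes name RMA, give no version and do not say which arrays were normalised together. RMA equalises the distributions of the arrays, so a difference is relative to other genes, and it compresses dim probe sets.

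Of 54613 probe sets other than 62 controls, 41091 had 1 symbol in the platform annotation, 1801 several and 11721 none, and genes came from the first kind. Entrez identifiers were looked up in a RefSeq table (GRCh38.p14), where 41037 probe sets were found and 0 symbols changed. Each gene was its probe set with the highest mean, compared if either value reached the floor of 4.59, and called at a log2 difference of 1. Spread was the scaled median absolute deviation in 10 bins of mean expression. No test was possible with 1 array per group. Every receptor was reported, and from each other list up to 4 members with the largest difference. Further list members were named after their values were seen (SCNN1A, SCNN1B, SCNN1G, CLOCK, NPAS2, CRY1, ABCA1, CYP24A1 and the markers). Members and lists were chosen with earlier results of these data known.

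Alternatives changed the floor, probe set choice, scaling (median, loess, ribosomal protein genes, spike-ins), threshold, and added 64 linear units. Raising values to the floor, and requiring both arrays above it, were chosen after the data were seen. Upstream windows came from RefSeq, and both strands were searched. Python 3.11.15, pandas 2.3.3 and statsmodels 0.14.6 were used, and the steps were tested on simulated data.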

Additional observations from a re-analysis of the deposited data

How the results depend on the processing

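The median difference of the receptors (0.23) stayed between 0.13 and 0.25 in the alternatives other than the spike-in scaling, in which it was 1.42. That scaling called 23 of 28 receptors higher and 1 lower, against 71.2% and 0.343% of all genes. The 3 receptors called higher and 2 called lower became 1 and 1 with the mean of all probe sets, with 64 linear units added, and at a 3-fold threshold, where 0.723% and 2.87%, 0.366% and 0.927%, and 0.195% and 1.04% of all genes were higher and lower. The count lower was 1 with the higher floor and with values raised to the floor, where 3.54% and 3.17% of all genes were lower. It was 0 with genes at or above the floor on both arrays, against 2.83% of all such genes. At a 1.5-fold threshold it was 4, where 10.5% of all genes were lower. Fewer receptors were compared with the higher floor (16), with both arrays required (23) and with the mean of all probe sets (24). On that mean RXRA was at 0.03 and NR1D2 at 0.97, and HNF4G had no value. With 64 linear units added RXRA was at 0.60, NR3C2 at 0.90 and HNF4G at -0.39. With values raised to the floor HNF4G was at -0.63. Scaled on ribosomal protein genes, RXRA (0.94) was no longer called. Of the 28 receptors, 22 kept their sign in each alternative that gave them a value, other than the spike-in scaling, though some dim ones, such as HNF4G, had no value in several, and PPARD, RORA, NR2C1, NR2C2, NR2F6 and ESR1 did not. Under the spike-in scaling VDR, NR2F1, NR5A2, RORA and NR3C1 turned above 0. LXR targets, and ERR and PGC-1 targets, had medians near 0 that changed sign. Vitamin D targets had a median of 0, and of -0.86 with the higher floor, which left 2 of them. RMA compresses dim values, so that for receptors near the floor of 4.59 a difference was not measurable with precision. No paired analysis was possible because each group has 1 array.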
